A study of Mus musculus with 3 samples.

Results

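The comparison described here sets cultured mouse primary astrocytes (pAs) against mouse embryonic fibroblasts (MEFs), with 22180 named genes as its members, which is every gene of the array that has a probe set annotated with exactly 1 gene symbol. It uses 2 of the 3 arrays of the study, which reprogrammed MEFs into induced astrocytes (iAs) with a cocktail of small molecules named VCSTO. The iA array chose no gene and its values enter no result below, although the authors' normalization may have drawn on all 3 arrays. Each cell type was measured once, on 1 Affymetrix Mouse Gene 2.0 ST array, so no difference carries a test and every value is a description of these arrays. The pAs came from the cortex of postnatal day 2 mice, were grown in serum-containing medium, and are not stated to have been sorted. The MEFs came from embryos at E13.5 and were grown in MEF medium. The study took care to leave neural tissue out of its MEFs and derived the cells it treated for the arrays from mice carrying GFP under the GFAP promoter, but the labels give no genotype, strain, passage or number of animals for either culture. GEO's labels repeat the VCSTO treatment and the 25 days of culture on every sample, whereas the paper treats the iAs alone.

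Levels are log2 values and they are compared between the arrays for the same gene. Where the levels of several fixed markers are summed, the brightest members can rule the sum. The median level over all probe sets was 6.57 on the pA array and 6.53 on the MEF array. A level below its array's median has no detection call behind it, so where the lower of a pair fell there, the fold is a lower bound, reckoned against the median of that array and written "at least". A gene counted as higher or lower in pAs when the deposited values differed by at least 1.5-fold. By that rule 2661 genes (12%) were higher in pAs and 2449 (11%) were lower, and these shares are the background for lists counted over all their measured genes. Among the 14232 genes that reached the median on at least 1 array the shares were 17.9% and 16.2%, and a list most of whose genes reached it is to be read against these. For 545 of the former and 632 of the latter the lower level was below the median. Differences of at least 4-fold were found in 493 genes higher and 483 lower, and of at least 16-fold in 47 and 50. The median difference over all named genes was 0.00, and 6045 of them (27.3%) had the same deposited value on both arrays, a share of 53.4% among genes below the median on both and of 12.6% among the others.

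**Figure D1:**
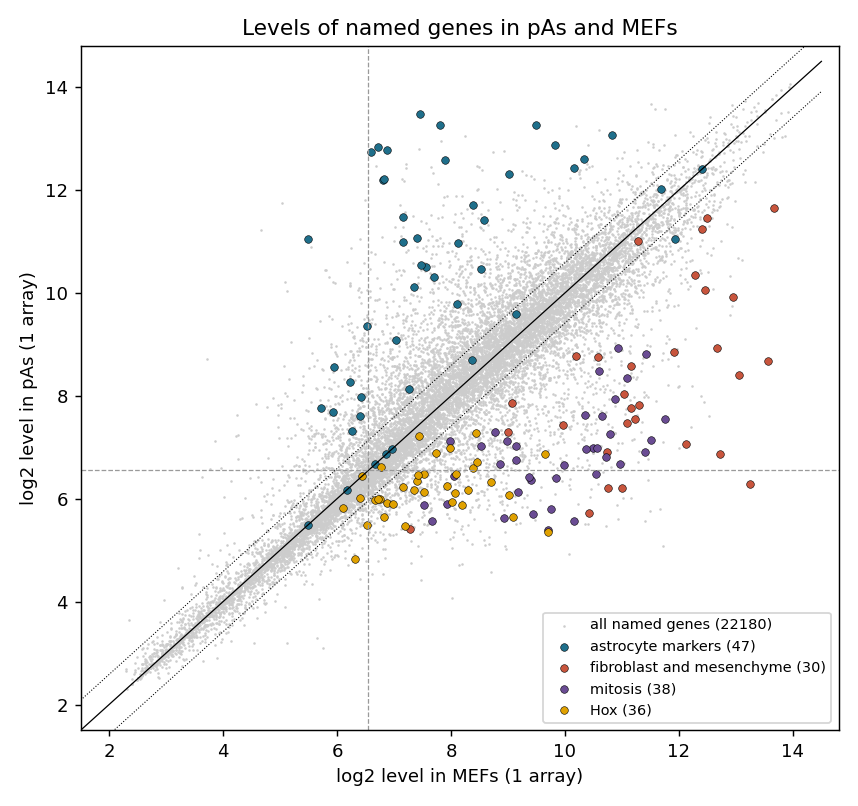
Log2 level in pAs (vertical axis) against log2 level in MEFs (horizontal axis) for the 22180 named genes, 1 array each. The solid line marks equal levels, the dotted lines 1.5-fold and the dashed lines the array medians of 6.57 and 6.53. The colored points are the members of 4 gene lists, of which all 38 mitosis genes lie below the lower dotted line.

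Astrocytes are glial cells of the central nervous system that take up glutamate and potassium released by active neurons, move water at the blood vessels, store glycogen and supply neurons with metabolites. In culture from newborn cortex they keep an intermediate filament network of GFAP and can still divide. Embryonic fibroblasts are mesenchymal cells of the trunk and limbs that deposit collagen fibres, divide rapidly at early passage, and keep a positional code of Hox genes.

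The cells labelled as primary astrocytes carried the markers of astrocytes, with all 6 of the fixed markers higher than in MEFs. Kcnj10, which encodes the inward rectifier potassium channel Kir4.1, stood at 13.48 in pAs and 7.46 in MEFs, which is 65.03-fold higher in pAs. Mlc1, a membrane protein of astrocyte endfeet, stood at 12.83 in pAs and 6.72 in MEFs (69.4-fold), and Aqp4, the water channel of the same endfeet, at 12.20 in pAs and 6.80 in MEFs (42.3-fold). Gfap, the intermediate filament protein of astrocytes, was at 13.26 in pAs and 7.80 in MEFs. Sox2, a transcription factor of neural stem cells that astrocytes keep, was at 12.21 in pAs and 7.13 in MEFs (33.8-fold). The smallest difference of the 6 was that of Slc1a3, the glutamate transporter GLAST, at 12.32 in pAs and 9.02 in MEFs (9.85-fold), with a MEF level well above that array's median. In the reverse direction, 8 of 8 fixed fibroblast markers were lower in pAs. Of these, 5 still reached the pA median, with Lum, Postn and Twist2 below it, and 8 reached the MEF median. Their summed level was 11.65 in pAs and 15.27 in MEFs on the log2 scale. Whether fibroblasts shared the pA culture was not tested.

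Over a longer list of astrocyte markers, 37 of 47 measured genes were higher in pAs and 1 was lower, with a median difference of 2.61. The list holds the markers above other than Sox2. Its top gene was Slc25a18, a mitochondrial glutamate carrier, at 12.745 in pAs and 6.60 in MEFs (70.7-fold). Hepacam, an adhesion molecule that holds Mlc1 at cell contacts, was at 12.78 in pAs and 6.88 in MEFs (59.6-fold), and Mt3, a brain metallothionein, at 12.21 in pAs and 6.83 in MEFs (41.8-fold). Mfge8, a secreted protein that marks dying cells for engulfment, went the other way at 11.055 in pAs and 11.94 in MEFs (1.84-fold). Several markers did not separate the cultures: Gja1, the connexin 43 of astrocyte gap junctions, was at 12.02 in pAs and 11.69 in MEFs, Slc14a1, a urea transporter, at 9.59 in pAs and 9.14 in MEFs, and F3, tissue factor, at 12.41 in pAs and 12.41 in MEFs. Gjb6, which encodes connexin 30, and Gpc5, a glypican, had the same value on both arrays, below both medians, and Slc7a10, a serine transporter, had the same value just above them.

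**Figure D2:**
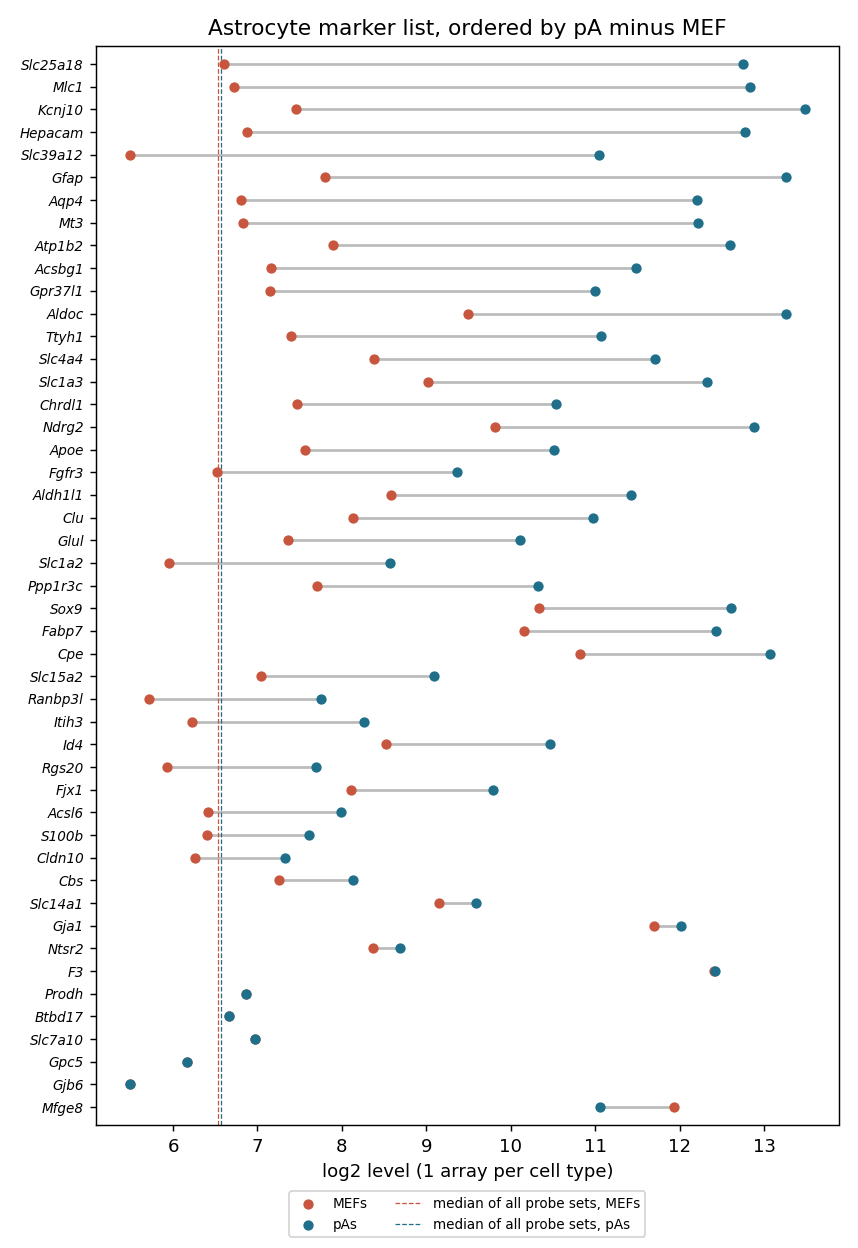
Log2 level (horizontal axis) of the 47 measured genes of the astrocyte marker list in pAs and MEFs, 1 array each, ordered by the difference; dashed lines are the medians of all probe sets on each array. Levels in pAs exceed those in MEFs by at least 1.5-fold for 37 genes, and the points coincide for Prodh, Btbd17, Slc7a10, Gpc5 and Gjb6.

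Genes of the endfoot and of water and potassium handling were higher as a group, 16 of 20 with 0 lower. Beside Kcnj10, Mlc1, Hepacam and Aqp4, they included Atp1b2, the sodium pump subunit of glia, at 12.59 in pAs and 7.895 in MEFs (25.9-fold). Gpr37l1, a receptor found on astrocytes, was at 10.99 in pAs and 7.15 in MEFs (14.3-fold). Among all 87 potassium channel genes, 14 were higher and 7 lower, shares of 16.1% and 8.05%. Among all genes that reached the median on at least 1 array the shares were 17.9% and 16.2%, so only the share of higher genes lies near them. Of the 87, 32 were below the median on both arrays. With levels under the median set to it, 14 were higher and 4 lower. Kcnh5, a voltage-gated channel, followed Kcnj10 at 10.59 in pAs and 6.47 in MEFs (at least 16.6-fold), and Kcnd3, the A-type channel Kv4.3, was at 10.80 in pAs and 7.22 in MEFs (12.02-fold). The leak channels Kcnk1, at 11.03 in pAs and 7.74 in MEFs (9.82-fold), and Kcnk2, at 10.58 in pAs and 7.55 in MEFs (8.16-fold), were higher too. Kcne4, a channel accessory subunit, was the lowest at 6.11 in pAs and 8.31 in MEFs (at least 3.35-fold).

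Of the genes of glutamate uptake and the glutamine cycle, 10 of 19 were higher and 1 was lower. Slc38a3, the glutamine exporter SNAT3, stood at 12.46 in pAs and 6.68 in MEFs (54.8-fold). Pcx, pyruvate carboxylase, which replenishes the carbon lost as glutamine, stood at 12.02 in pAs and 8.80 in MEFs (9.32-fold), and Glul, glutamine synthetase, at 10.11 in pAs and 7.36 in MEFs (6.72-fold). Slc1a2, the transporter GLT-1 that carries most glutamate uptake in the adult forebrain, was at 8.57 in pAs and 5.96 in MEFs (at least 4.09-fold), so both glutamate transporters of astrocytes were higher in pAs. Slc1a5, a neutral amino acid exchanger of dividing cells, went the other way at 7.34 in pAs and 8.87 in MEFs (2.89-fold).

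Across the whole solute carrier superfamily, 66 of 374 genes (17.6%) were higher and 36 (9.63%) lower. Among all genes that reached the median on at least 1 array the shares were 17.9% and 16.2%. The families named next were chosen after their values were seen, and most hold few called genes. Of 46 mitochondrial carriers (Slc25), 13 were higher and 3 lower, and of 26 nucleotide sugar transporters and their relatives (Slc35) 6 were higher and 0 lower. Of 24 organic ion transporters (Slc22) 4 were higher and 0 lower, a share of higher genes close to that of the superfamily. In the Slc7 family of amino acid transporters the direction was mostly the reverse, with 2 higher and 5 lower of 16. Slco1a4, an organic anion carrier of brain vessels and glia, was at 11.22 in pAs and 4.67 in MEFs (at least 25.8-fold), and Slco1c1, the thyroxine carrier, was at 10.21 in pAs and 5.92 in MEFs (at least 12.7-fold). Slc39a12, a zinc importer of the brain, was at 11.05 in pAs and 5.49 in MEFs. Against them, Slc38a4, an amino acid transporter expressed from an imprinted gene, was at 5.80 in pAs and 11.67 in MEFs, and Slc16a3, the lactate exporter MCT4 of glycolytic cells, at 7.19 in pAs and 10.33 in MEFs (8.82-fold). Slco2a1, the prostaglandin transporter, was at 7.68 in pAs and 10.72 in MEFs (8.23-fold).

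More transcription factors of glia and of brain regions were higher in pAs than lower, and those of limb and trunk mesoderm were mostly lower. On the glial list 17 of 32 were higher and 2 lower. Beside Sox2, the higher ones included Rfx4, a regulatory factor of the developing neural tube, at 10.60 in pAs and 6.17 in MEFs (at least 16.7-fold), and Npas3, a basic helix-loop-helix factor, at 10.19 in pAs and 5.96 in MEFs (at least 12.6-fold). Hey1, a Notch target, was at 11.71 in pAs and 7.87 in MEFs (14.3-fold), whereas Hes1, another Notch target, was lower at 8.20 in pAs and 10.68 in MEFs (5.56-fold). Olig1 and Olig2, factors of oligodendrocyte precursors that some astrocytes also express, were at 10.84 in pAs and 7.25 in MEFs (12-fold) and at 9.92 in pAs and 6.39 in MEFs (at least 10.5-fold), while Sox10, which marks committed oligodendrocyte lineage cells and neural crest, was at 7.18 in pAs and 7.91 in MEFs (1.66-fold). Sox9, which is needed for gliogenesis and is also expressed in cartilage, was at 12.60 in pAs and 10.33 in MEFs (4.84-fold).

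Genes of radial glia and neural stem cells, the precursors of cortical astrocytes, were also higher, 15 of 23 with 4 lower. Ptprz1, a receptor phosphatase of radial glia, was at 12.01 in pAs and 8.46 in MEFs (11.7-fold), Pax6, the transcription factor of dorsal forebrain progenitors, at 9.56 in pAs and 6.22 in MEFs (at least 8.14-fold), and Sox1, a neuroepithelial factor, at 9.36 in pAs and 6.09 in MEFs (at least 7.09-fold). Prom1, which encodes the surface antigen CD133, was at 10.42 in pAs and 7.17 in MEFs (9.49-fold), and Nes, the intermediate filament protein nestin, was at 11.19 in pAs and 9.32 in MEFs (3.65-fold), on a MEF level well above the median. Against the direction of the list, Phgdh, the first enzyme of serine synthesis, was at 8.29 in pAs and 9.46 in MEFs (2.25-fold).

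Among 45 transcription factors that mark regions of the brain, 14 were higher and 9 lower. The largest of the higher ones were factors of the forebrain. Nr2e1, the Tlx receptor of forebrain stem cells, was at 10.39 in pAs and 6.41 in MEFs (at least 14.4-fold), Pou3f3, a POU factor of the upper cortical layers, at 11.11 in pAs and 7.66 in MEFs (10.9-fold), and Fezf2, a factor of cortical progenitors and deep-layer neurons, at 9.41 in pAs and 6.24 in MEFs (at least 7.36-fold). Lhx2, which specifies cortex, was at 10.19 in pAs and 7.70 in MEFs (5.60-fold). The lower ones included Irx1, at 6.69 in pAs and 9.09 in MEFs (5.30-fold), Irx2, at 6.62 in pAs and 8.62 in MEFs (4-fold), En1, a midbrain and limb ectoderm factor, at 6.38 in pAs and 8.13 in MEFs (at least 2.96-fold), and Egr2, a hindbrain and Schwann cell factor, at 7.36 in pAs and 9.01 in MEFs (3.15-fold). The Iroquois factors Irx1 and Irx2 act in mesoderm as well as in the nervous system.

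The Hox genes, which record position along the trunk and limbs and are silent in the forebrain, were mostly lower in pAs. Of 36 measured, 31 were lower and 0 higher, 31 reached the MEF array's median and 8 reached that of the pA array. With levels under the median set to it, 23 were lower, and at a 2-fold threshold on the deposited values 23 were lower. The highest level of any Hox gene in pAs was 7.27, and that in MEFs was 9.70. By cluster, 8 of 9 Hoxa genes, 8 of 10 Hoxb genes, 9 of 9 Hoxc genes and 6 of 8 Hoxd genes were lower. Hoxd13, a gene of the digits and the hind end of the body, was at 5.36 in pAs and 9.70 in MEFs (at least 8.79-fold), and Hoxc6 and Hoxc8, genes of the thorax, were at 5.64 in pAs and 9.09 in MEFs (at least 5.74-fold) and at 6.07 in pAs and 9.01 in MEFs (at least 5.44-fold). Hoxb9 was at 6.87 in pAs and 9.65 in MEFs (6.86-fold). Genes from both ends of the clusters were among the lower ones, such as Hoxa2 at 5.94 in pAs and 8.02 in MEFs (at least 2.74-fold) and Hoxa13 at 6.60 in pAs and 8.39 in MEFs (3.45-fold), and the 5 genes within 1.5-fold were Hoxa4, Hoxb1, Hoxb13, Hoxd1 and Hoxd12.

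**Figure D3:**
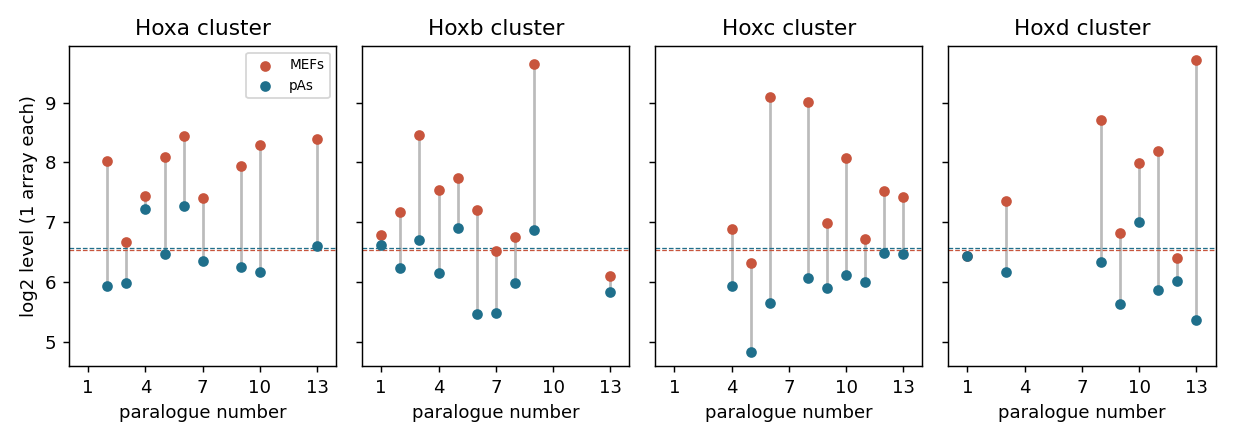
Log2 level (vertical axis) of the 36 measured Hox genes by paralogue number (horizontal axis) in each of the 4 clusters, 1 array per cell type; the dashed lines are the array medians and the grey bars join the levels of a gene. In pAs most Hox genes lie below the median line, and the levels do not exceed 7.27.

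Of 52 other transcription factors of limb, trunk and connective tissue, 40 were lower and 4 higher, with a median difference of -1.34. Ebf1, a factor of mesenchyme and B cells, was at 5.60 in pAs and 10.92 in MEFs (at least 20.5-fold), Twist2, a basic helix-loop-helix factor of dermis, at 5.715 in pAs and 10.42 in MEFs, and Tbx15, a T-box factor of limb and skin mesenchyme, at 7.295 in pAs and 11.34 in MEFs (16.5-fold). Tbx5, which specifies the forelimb, was at 5.59 in pAs and 9.47 in MEFs (at least 7.50-fold), and Gata6, a factor of heart and endoderm, at 5.83 in pAs and 9.24 in MEFs (at least 6.38-fold). Among the 4 that were higher, Sox9 is also a glial factor and Emx2, at 9.40 in pAs and 8.61 in MEFs (1.73-fold), patterns the cortex, while Mkx, a tendon factor, was at 9.44 in pAs and 7.83 in MEFs (3.07-fold) and Msx2, which patterns limb and skull, at 8.07 in pAs and 7.03 in MEFs (2.05-fold).

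Probe sets for microRNA genes, which read the precursor or its host transcript and not the mature microRNA, gave 35 genes higher and 40 lower of 480 measured. Both shares are below the 12% and 11% of all named genes. The 3 genes for miR-9, a microRNA of the nervous system, lie on different chromosomes and encode the same mature sequence. Mir9-2 was at 8.72 in pAs and 3.72 in MEFs (at least 4.55-fold), Mir9-1 at 7.21 in pAs and 5.59 in MEFs (at least 1.60-fold) and Mir9-3 at 7.82 in pAs and 7.18 in MEFs (1.55-fold). Mir99a, which shares a host transcript with a let-7 gene, was at 7.34 in pAs and 5.41 in MEFs (at least 1.75-fold), and Mirlet7c-2, of the let-7 family that is abundant in differentiated cells, was at 7.31 in pAs and 5.99 in MEFs (at least 1.72-fold). Mirlet7b, of the same family, was at 6.77 in pAs and 4.27 in MEFs, a log2 difference of at least 0.24, so its lower bound falls short of 1.5-fold. Lower in pAs were Mir23a, at 7.44 in pAs and 9.02 in MEFs (2.99-fold), and its neighbour Mir27a, at 7.46 in pAs and 9.30 in MEFs (3.59-fold). Between Meg3 and Dio3 on chromosome 12, an imprinted region whose long transcripts carry many microRNAs and are expressed in embryonic tissue, 25 of 43 measured microRNA genes were lower and 0 higher, against 15 lower and 35 higher of 437 elsewhere. Of those 25, 9 were below the median on both arrays, and with levels under the median set to it 11 of the 43 were lower, against 7 lower and 20 higher elsewhere. Mir377 was at 5.21 in pAs and 7.98 in MEFs (at least 2.67-fold) and Mir382 at 6.11 in pAs and 8.19 in MEFs (at least 3.09-fold) there, and Rian, a long noncoding RNA of the same region, was at 7.83 in pAs and 10.69 in MEFs (7.27-fold). Because these genes share long precursors, they are not independent observations. One arm of each named microRNA is shown, since the seed (bases 2 to 8, in capitals) is what pairs with target messages, and among those shown only let-7b and let-7c share one. The sequences and positions are those of RefSeq on GRCm38.p6, all on the plus strand.
miR-9-5p (Mir9-2, chr13:83738821-83738843): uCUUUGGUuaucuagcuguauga
let-7b-5p (Mirlet7b, chr15:85707325-85707346): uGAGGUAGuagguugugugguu
let-7c-5p (Mirlet7c-2, chr15:85706616-85706637): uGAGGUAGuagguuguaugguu
miR-99a-5p (Mir99a, chr16:77598940-77598961): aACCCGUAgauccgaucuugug
miR-23a-3p (Mir23a, chr8:84208563-84208583): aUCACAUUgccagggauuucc
miR-27a-3p (Mir27a, chr8:84208727-84208747): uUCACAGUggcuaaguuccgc
miR-377-3p (Mir377, chr12:109740553-109740574): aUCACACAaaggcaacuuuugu
miR-382-5p (Mir382, chr12:109733781-109733802): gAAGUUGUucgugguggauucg

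Genes of cell division were lower in pAs throughout, with all 38 of 38 measured mitosis genes lower and a median difference of -3.04. Of these, 38 reached the MEF median and 24 the pA median. Bub1, a kinase of the spindle checkpoint, was at 5.56 in pAs and 10.165 in MEFs (at least 12.1-fold), Ccnb2, a cyclin of mitosis, at 7.14 in pAs and 11.51 in MEFs (20.7-fold), and Ccna2, the cyclin of S and G2 phase, at 7.545 in pAs and 11.76 in MEFs (18.6-fold). Mki67, the antigen Ki-67 used to score dividing cells, was at 6.48 in pAs and 10.55 in MEFs (at least 15.8-fold), and Top2a, the topoisomerase that separates sister chromosomes, at 6.81 in pAs and 10.72 in MEFs (14.97-fold). Of the genes for DNA replication, 33 of 36 were lower and 0 higher. Chaf1b, a subunit of the chromatin assembly factor, was at 7.13 in pAs and 10.33 in MEFs (9.15-fold), Tk1, thymidine kinase, at 7.15 in pAs and 9.97 in MEFs (7.03-fold), and Pole2, a subunit of DNA polymerase epsilon, at 6.95 in pAs and 9.51 in MEFs (5.87-fold). Replication genes stayed nearer to MEFs than mitosis genes, with a median difference of -1.43. A bulk array cannot tell fewer dividing cells from less RNA per dividing cell, and the same holds for every list of a cell type below.

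Kinesins, the motor proteins that move on microtubules, were divided, with 9 of 37 higher and 13 lower, and the largest of the lower ones act in cell division. Kif20a, a motor of cytokinesis, was at 6.68 in pAs and 10.96 in MEFs (19.5-fold), Kif15, a spindle motor, at 5.08 in pAs and 8.94 in MEFs (at least 5.18-fold), and Kif11, the motor that separates the spindle poles, at 6.96 in pAs and 10.36 in MEFs (10.6-fold). The higher ones included Kif21a, at 9.40 in pAs and 6.88 in MEFs (5.74-fold), Kif1b, at 11.61 in pAs and 9.46 in MEFs (4.44-fold), and Kif5c, at 9.67 in pAs and 7.70 in MEFs (3.92-fold), which carry cargo in neurites. Among inhibitors of the cycle and p53 targets, 7 of 21 were higher and 3 lower, such as Sesn1, a stress-induced p53 target, at 10.56 in pAs and 9.10 in MEFs (2.75-fold), and Cdkn1b, the inhibitor p27, at 10.55 in pAs and 9.53 in MEFs (2.03-fold). Plk2, a kinase induced by stress and growth signals, was the lowest of that list at 8.84 in pAs and 10.59 in MEFs (3.37-fold).

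The promoters of the mitosis genes share letters, which were counted from list membership and not from any level on these arrays. The counts therefore describe the genes of the lists and not the difference between pAs and MEFs. The motif TTTGAA, known as the core of the cell cycle homology region that the MuvB complex binds, was found on either strand in the RefSeq window from 250 bases before to 50 after the start in 24 of 31 mitosis genes with a window (77.4%), against 18.1% of all 27025 genes with one. It was found in 4 of 30 replication genes, 3 of 38 astrocyte markers and 4 of 17 fibroblast genes. CCAAT, the letters read by the factor NF-Y, was found on either strand in 23 of 31 mitosis genes (74.2%) and in 18 of 30 replication genes, against 37.9% of all. The motifs did not overlap in the sequences shown here. A match is a match of letters only and was not tied to binding in these cells. Any mitosis gene on a chromosome whose sequences could not be printed was left out of the next counts. These counts may therefore not cover all 31 mitosis genes with a window. In 6 of the remaining mitosis genes TTTGAA lay in the 100 bases before the start, in 5 of them together with CCAAT. The 4 of these with the largest differences that hold both are shown as those 100 bases, on the strand of the gene, with both motifs, in either orientation, in capitals (RefSeq, GRCm38.p6). Cdc20 encodes the activator of the anaphase-promoting complex and stood at 7.25 in pAs and 10.80 in MEFs (11.7-fold), and Cdk1, the kinase that drives mitosis, stood at 8.82 in pAs and 11.42 in MEFs (6.06-fold).
Top2a (chr11:99024190-99024289, minus strand): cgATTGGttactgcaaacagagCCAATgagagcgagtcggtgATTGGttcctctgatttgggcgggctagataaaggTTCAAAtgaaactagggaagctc
Cdc20 (chr4:118437344-118437443, minus strand): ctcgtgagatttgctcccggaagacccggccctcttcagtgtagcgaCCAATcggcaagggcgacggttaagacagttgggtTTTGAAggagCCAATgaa
Kif11 (chr19:37376282-37376381, plus strand): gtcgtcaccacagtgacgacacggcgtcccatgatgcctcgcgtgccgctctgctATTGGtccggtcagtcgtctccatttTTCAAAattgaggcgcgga
Cdk1 (chr10:69352913-69353012, minus strand): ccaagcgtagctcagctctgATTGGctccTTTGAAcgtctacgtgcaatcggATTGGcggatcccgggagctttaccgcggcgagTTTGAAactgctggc
In Top2a, Cdc20, Kif11 and Cdk1 a TTTGAA or its reverse began within 23 bases of the start.

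The genes of fibroblasts and mesenchyme were lower in pAs in 29 of 30 cases, with a median difference of -3.05, and none was higher. Fbln2, the matrix protein fibulin-2, was at 6.88 in pAs and 12.71 in MEFs (57.2-fold), Pdgfra, the receptor of platelet-derived growth factor on mesenchyme and oligodendrocyte precursors, at 7.07 in pAs and 12.13 in MEFs (33.3-fold), and Lox, the enzyme that crosslinks collagen, at 8.68 in pAs and 13.56 in MEFs (29.4-fold). Postn, the matrix protein periostin, was at 6.29 in pAs and 13.25 in MEFs (at least 103-fold). Outside that list, further genes were low in pAs: Capn6, a member of the calpain family, at 5.56 in pAs and 11.40 in MEFs (at least 28.5-fold), Lrrc17, a leucine-rich repeat protein, at 5.47 in pAs and 10.71 in MEFs (at least 17.7-fold), H2bc12, a histone H2B gene, at 6.02 in pAs and 11.16 in MEFs (at least 24.1-fold), and Fabp4, a fatty acid carrier of adipocytes, at 4.93 in pAs and 10.06 in MEFs (at least 11.3-fold). The exception was Thy1, an antigen of fibroblasts that is also on neurons, at 11.003 in pAs and 11.28 in MEFs. Enzymes and chaperones that modify collagen were lower as well, 16 of 23 lower and 0 higher, among them Pcolce, the enhancer of procollagen cleavage, at 8.97 in pAs and 11.48 in MEFs (5.70-fold), P4ha2, a prolyl hydroxylase, at 7.70 in pAs and 10.14 in MEFs (5.43-fold), and Serpinh1, the collagen chaperone HSP47, at 10.04 in pAs and 11.81 in MEFs (3.40-fold). Of the 44 collagen chains, 21 were lower and 2 higher. The higher ones were Col4a6, at 8.51 in pAs and 7.04 in MEFs (2.77-fold), and Col4a5, at 8.68 in pAs and 7.87 in MEFs (1.76-fold), which together form a basement membrane trimer, whereas Col4a2, of the ubiquitous basement membrane trimer, was at 7.57 in pAs and 9.48 in MEFs (3.77-fold).

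The matrix of the brain differs from that of connective tissue in resting on hyaluronan-binding proteoglycans, and here 10 of 30 genes of a list of such matrix were higher and 10 lower. Ncan, neurocan, was at 11.11 in pAs and 7.12 in MEFs (15.9-fold), Bcan, brevican, at 10.01 in pAs and 6.41 in MEFs (at least 11.1-fold), and Tnr, tenascin-R, at 9.14 in pAs and 6.28 in MEFs (at least 6.07-fold). Has2, a hyaluronan synthase, was at 5.77 in pAs and 11.50 in MEFs (at least 30.6-fold), Gpc3, a glypican of embryonic tissue, at 6.61 in pAs and 10.80 in MEFs (18.3-fold), and Vcan, versican, at 7.09 in pAs and 10.93 in MEFs (14.3-fold), so within the lectican family neurocan and brevican were on one side and versican on the other. Laminins and integrins were divided too. Of 10 laminin chains 2 were higher and 5 lower, with Lama5 at 10.18 in pAs and 8.07 in MEFs (4.30-fold) and Lamb1 at 6.92 in pAs and 11.30 in MEFs (20.8-fold), and of 30 genes on the integrin list 6 were higher and 9 lower, with Itgb8, which activates TGF-beta in glia, at 11.56 in pAs and 8.36 in MEFs (9.20-fold), and Itga11, a collagen receptor of fibroblasts, at 7.135 in pAs and 11.18 in MEFs (16.5-fold). Matrix proteases and their inhibitors were lower in 21 of 44 cases and higher in 2. Mmp2, a gelatinase, was at 8.94 in pAs and 12.68 in MEFs (13.4-fold), and Timp4, an inhibitor found in brain and heart, was at 8.95 in pAs and 6.50 in MEFs (at least 5.32-fold).

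Adhesion molecules also differed member by member. Among cadherins, 7 of 23 were higher and 6 lower, with Cdh2, N-cadherin, at 11.45 in pAs and 9.86 in MEFs (3.01-fold), Cdh3, P-cadherin, at 6.61 in pAs and 10.29 in MEFs (12.8-fold), and Cdh11, a cadherin of mesenchyme, at 10.64 in pAs and 13.10 in MEFs (5.52-fold). Of 35 protocadherins 8 were higher and 5 lower (22.9% and 14.3%), near the 17.9% and 16.2% of genes that reached the median on at least 1 array. The largest of the higher ones was Pcdh10, at 11.40 in pAs and 7.47 in MEFs (15.3-fold), and against it stood Pcdh18, at 7.46 in pAs and 10.76 in MEFs (9.85-fold). Members of the clustered protocadherins are close copies of each other, so the array may not separate them. Of 67 genes for guidance molecules and their receptors 15 were higher and 20 lower, with Ntn4, a netrin of basement membranes, at 10.79 in pAs and 6.59 in MEFs (18.4-fold), and Epha3, an ephrin receptor, at 6.70 in pAs and 10.65 in MEFs (15.4-fold). Connexins and pannexins gave 0 higher and 4 lower of 19, with Gjb2, connexin 26, at 7.46 in pAs and 10.21 in MEFs (6.72-fold).

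Signalling pathways had members on both sides. Of the BMP pathway and its Id targets, 12 of 35 were higher and 10 lower. Bmp6, a ligand, was at 12.50 in pAs and 7.21 in MEFs (39.3-fold), Chrdl1, a BMP antagonist that astrocytes secrete, at 10.54 in pAs and 7.465 in MEFs (8.41-fold), and Smad9, a signal transducer, at 10.08 in pAs and 7.66 in MEFs (5.36-fold), while Grem1, the antagonist gremlin, was at 6.77 in pAs and 11.46 in MEFs (25.7-fold), and Bmper, a modulator of BMP binding, at 6.94 in pAs and 9.55 in MEFs (6.08-fold). All 4 Id genes were higher, from Id4 at 10.46 in pAs and 8.53 in MEFs (3.82-fold) to Id3 at 11.49 in pAs and 10.39 in MEFs (2.15-fold). Genes that respond to TGF-beta were lower in 15 of 26 cases and higher in 1, with Tgfbi, a secreted matrix protein, at 7.997 in pAs and 12.39 in MEFs (21.1-fold), and Inhba, the activin A subunit, at 7.16 in pAs and 10.30 in MEFs (8.82-fold), but this list shares matrix genes with the fibroblast list.

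For FGF, 8 of 32 genes were higher and 6 lower (25% and 18.75%). These shares lie near the 17.9% and 16.2% of all genes that reached the median on at least 1 array. Fgfr3, the receptor of astrocytes, was at 9.37 in pAs and 6.52 in MEFs (at least 7.11-fold), Fgfrl1, a receptor without a kinase, at 12.50 in pAs and 10.38 in MEFs (4.34-fold), and Fgf1, a ligand, at 9.25 in pAs and 7.42 in MEFs (3.55-fold), whereas Fgf7, a ligand that mesenchyme sends to epithelium, was at 6.76 in pAs and 10.39 in MEFs (12.4-fold). For Wnt, 11 of 56 were higher and 17 lower (19.6% and 30.4%). Ndp, the ligand norrin, was at 9.645 in pAs and 6.64 in MEFs (8.03-fold), and the receptors Fzd3, at 10.37 in pAs and 7.65 in MEFs (6.59-fold), and Fzd6, at 10.50 in pAs and 8.48 in MEFs (4.04-fold), were also higher. Nkd2 and Dkk2, which dampen Wnt signals, were at 6.79 in pAs and 9.91 in MEFs (8.68-fold) and at 6.71 in pAs and 9.73 in MEFs (8.15-fold), and Lgr5, a receptor of R-spondins, was at 6.12 in pAs and 8.98 in MEFs (at least 5.31-fold). For Notch, 7 of 29 were higher and 5 lower (24.1% and 17.2%), also near those shares, and 4 were at least 2-fold higher. Dtx4, a ubiquitin ligase of the pathway, was at 10.57 in pAs and 8.62 in MEFs (3.87-fold), and Notch1, a receptor, at 10.97 in pAs and 9.497 in MEFs (2.78-fold). On the other side, Dlk1, a noncanonical ligand of embryonic tissue, was at 6.85 in pAs and 9.40 in MEFs (5.87-fold), and Jag1, a ligand, at 7.80 in pAs and 9.96 in MEFs (4.48-fold). Hey1 and Hes1, both Notch targets, lay on opposite sides as given above.

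Receptors for transmitters and peptides, by which astrocytes sense neuronal activity, gave 10 higher and 5 lower of 38. Gabrb1, a GABA-A receptor subunit, was at 10.87 in pAs and 7.50 in MEFs (10.3-fold), Gria2, an AMPA receptor subunit, at 8.81 in pAs and 6.14 in MEFs (at least 4.85-fold), P2ry1, a purine receptor coupled to calcium waves, at 9.69 in pAs and 7.36 in MEFs (5.02-fold), and Ednrb, an endothelin receptor, at 11.08 in pAs and 9.25 in MEFs (3.55-fold). Htr2a, a serotonin receptor, was lower at 6.66 in pAs and 10.41 in MEFs (13.49-fold). Secreted proteins that act on neurons were divided as well, 12 of 37 higher and 14 lower. Scg3, a granule protein, was at 11.74 in pAs and 5.03 in MEFs (at least 36.8-fold), whereas Igf2 was at 7.39 in pAs and 12.21 in MEFs, Thbs4, a thrombospondin that is also a tendon protein, at 6.51 in pAs and 10.67 in MEFs (at least 17.1-fold), and Tgfb1 at 7.93 in pAs and 10.78 in MEFs (7.20-fold).

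Metabolic lists separated the cultures in both directions. Of genes for glycogen, glycolysis and lactate, 12 of 27 were higher and 3 lower. Aldoc, the aldolase of astrocytes, was at 13.26 in pAs and 9.495 in MEFs (13.6-fold), Pdk4, a kinase that holds pyruvate out of the citric acid cycle, at 11.20 in pAs and 8.26 in MEFs (7.64-fold), Ldhb, the lactate dehydrogenase chain of oxidative tissues, at 11.22 in pAs and 8.55 in MEFs (6.36-fold), and Ppp1r3c, which targets phosphatase to glycogen, at 10.32 in pAs and 7.70 in MEFs (6.12-fold). For lactate transport the exporter Slc16a3 was lower, as above, and Slc16a1, the transporter MCT1, was higher at 12.62 in pAs and 10.99 in MEFs (3.08-fold). Glutathione and antioxidant genes were higher in 17 of 29 cases and lower in 1, with Gclc, the catalytic subunit of the rate-limiting enzyme of glutathione synthesis, at 12.27 in pAs and 9.40 in MEFs (7.29-fold), its partner Gclm at 12.16 in pAs and 10.56 in MEFs (3.04-fold), and Gstm1, a glutathione transferase, at 10.62 in pAs and 7.97 in MEFs (6.25-fold). The lower one was Gstm2, of the same transferase family, at 9.76 in pAs and 10.40 in MEFs (1.56-fold). At a threshold of 2-fold, 9 of them remained higher.

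Serine, glycine and folate genes were divided, 6 of 18 higher and 8 lower. Gldc and Amt, subunits of the glycine cleavage system, were at 11.71 in pAs and 7.11 in MEFs (24.2-fold) and at 10.07 in pAs and 7.004 in MEFs (8.37-fold), and Aldh1l1, the cytosolic formyltetrahydrofolate dehydrogenase used as an astrocyte marker, at 11.42 in pAs and 8.58 in MEFs (7.19-fold). Lower were the mitochondrial enzymes of proliferating cells Mthfd2, at 8.19 in pAs and 10.44 in MEFs (4.78-fold), Mthfd1l, at 7.43 in pAs and 9.305 in MEFs (3.67-fold), and Shmt2, at 10.74 in pAs and 12.57 in MEFs (3.55-fold), and Aldh1l2, the mitochondrial counterpart of Aldh1l1, was at 8.80 in pAs and 10.33 in MEFs (2.89-fold). Of the enzymes of sterol synthesis 10 of 18 were lower and 0 higher, with Fdps, farnesyl diphosphate synthase, at 10.41 in pAs and 12.50 in MEFs (4.26-fold), Cyp51, lanosterol demethylase, at 8.61 in pAs and 10.61 in MEFs (3.98-fold), and Lss, lanosterol synthase, at 8.76 in pAs and 10.66 in MEFs (3.73-fold), and 6 were at least 2-fold lower. Carriers of lipid and genes of fatty acid metabolism gave 11 higher and 6 lower of 30. Acsbg1, an acyl-CoA synthetase of brain, was at 11.48 in pAs and 7.16 in MEFs (19.9-fold), Apoe, the main apolipoprotein of astrocytes, at 10.51 in pAs and 7.57 in MEFs (7.68-fold), Clu, clusterin, at 10.97 in pAs and 8.13 in MEFs (7.17-fold), and Abca1, which loads lipid onto apolipoproteins, at 11.90 in pAs and 9.18 in MEFs (6.60-fold), while Lpl, lipoprotein lipase, was at 5.84 in pAs and 8.25 in MEFs (at least 3.21-fold).

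Of 74 subunits of the respiratory chain 4 were higher and 1 was lower, fewer than the background share in each direction, with Cox7a1, the isoform of heart and muscle, at 9.91 in pAs and 7.17 in MEFs (6.69-fold). Cytosolic ribosomal proteins were lower in 37 of 67 cases and higher in 0, with a median difference of -0.67, and 21 were at least 2-fold lower. They ran from Rps12, at 9.33 in pAs and 11.26 in MEFs (3.81-fold), and Rpl32, at 11.29 in pAs and 12.92 in MEFs (3.11-fold), to genes with the same value on both arrays. Ribosomal protein genes have many processed copies in the genome, which the array may not separate. Of 38 proteasome subunits, 2 were lower and 0 higher.

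**Figure D4:**
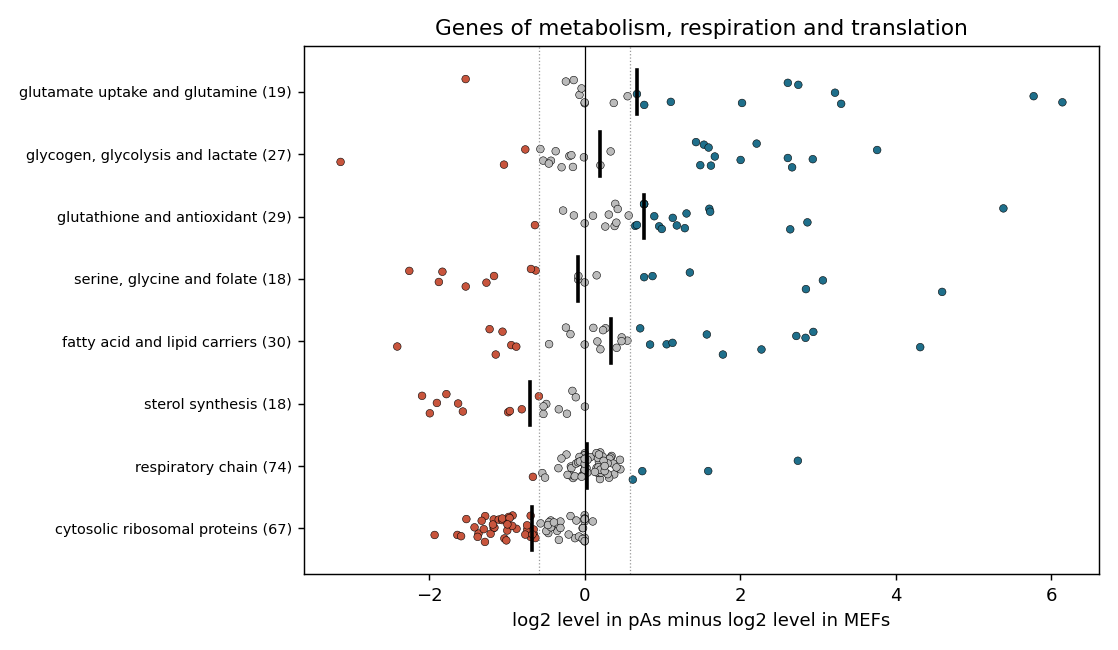
Difference in log2 level, pAs minus MEFs (horizontal axis), for each gene (point, spread vertically for legibility) of 8 lists, with the number of genes in brackets. Black bars are list medians, dotted lines mark 1.5-fold, blue points are higher and red points lower in pAs; the bar of the ribosomal proteins lies at -0.67 and that of the respiratory chain at 0.04.

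Genes of reactive astrocytes, which respond to injury, were divided, 10 higher and 9 lower of 32. Beside Gfap, the higher ones included Lcn2, the iron-siderophore carrier lipocalin-2, at 13.04 in pAs and 8.25 in MEFs (27.8-fold), Cp, ceruloplasmin, at 12.47 in pAs and 8.46 in MEFs (16.1-fold), and Steap4, a metalloreductase, at 12.38 in pAs and 8.55 in MEFs (14.2-fold). Timp1, a protease inhibitor, was at 9.57 in pAs and 12.90 in MEFs (10.02-fold), Ptgs2, cyclooxygenase-2, at 9.02 in pAs and 11.78 in MEFs (6.79-fold), and Emp1, a membrane protein, at 8.08 in pAs and 10.69 in MEFs (6.10-fold). Serpina3n, a protease inhibitor often used as a mark of reactivity, was high on both arrays at 13.42 in pAs and 12.55 in MEFs (1.83-fold). Chemokines and their receptors were lower in 18 of 55 cases and higher in 2, with Ccl7, at 7.89 in pAs and 12.44 in MEFs (23.4-fold), Ccl11, at 6.13 in pAs and 9.17 in MEFs (at least 6.07-fold), and Ccl2, at 10.08 in pAs and 12.60 in MEFs (5.73-fold), all of which attract leukocytes, and Cxcl10, an interferon-induced chemokine, at 8.77 in pAs and 7.70 in MEFs (2.10-fold). Of interferon response genes 9 of 31 were higher and 2 lower, led by Tlr3, the sensor of double-stranded RNA, at 11.75 in pAs and 8.39 in MEFs, and Ifit2, an interferon-induced protein, at 9.31 in pAs and 7.27 in MEFs (4.13-fold), and Trim25, a ubiquitin ligase of RNA sensing, was lower at 8.17 in pAs and 9.40 in MEFs (2.35-fold). Complement genes gave 7 higher and 5 lower of 22, with C4b, complement component 4, at 10.10 in pAs and 7.78 in MEFs (5.02-fold), and Cd55, which shields cells from complement, at 5.44 in pAs and 7.35 in MEFs (at least 1.72-fold).

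Genes of mature astrocytes were higher in 23 of 40 cases and lower in 4. They share Slco1a4, Slc39a12, Lcn2 and Aldoc with the lists above, and Cyp4f14, a P450 of leukotriene breakdown, was at 8.84 in pAs and 5.57 in MEFs (at least 4.93-fold). The largest difference the other way was that of Cxcl5, a neutrophil chemokine, at 8.17 in pAs and 10.39 in MEFs (4.66-fold). Of 93 P450 genes, 10 were higher and 6 lower (10.8% and 6.45%), no more than the 12% and 11% of all named genes. Of the 93, 67 were below the median on both arrays. Among the higher ones was Cyp46a1, the cholesterol 24-hydroxylase of neurons, at 9.99 in pAs and 7.68 in MEFs (4.96-fold). Growth genes of the embryo, many of them imprinted, were lower in 15 of 26 cases and higher in 1, with Grb10, an adaptor that dampens insulin signals, at 8.19 in pAs and 11.997 in MEFs (14.04-fold), Igf2bp3, an RNA-binding protein of embryonic tissue, at 6.89 in pAs and 10.49 in MEFs (12.1-fold), and Hmga2, a chromatin protein of embryonic cells, at 7.98 in pAs and 11.46 in MEFs (11.2-fold). The higher one was Nnat, neuronatin, at 7.45 in pAs and 6.78 in MEFs (1.59-fold).

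**Figure D5:**
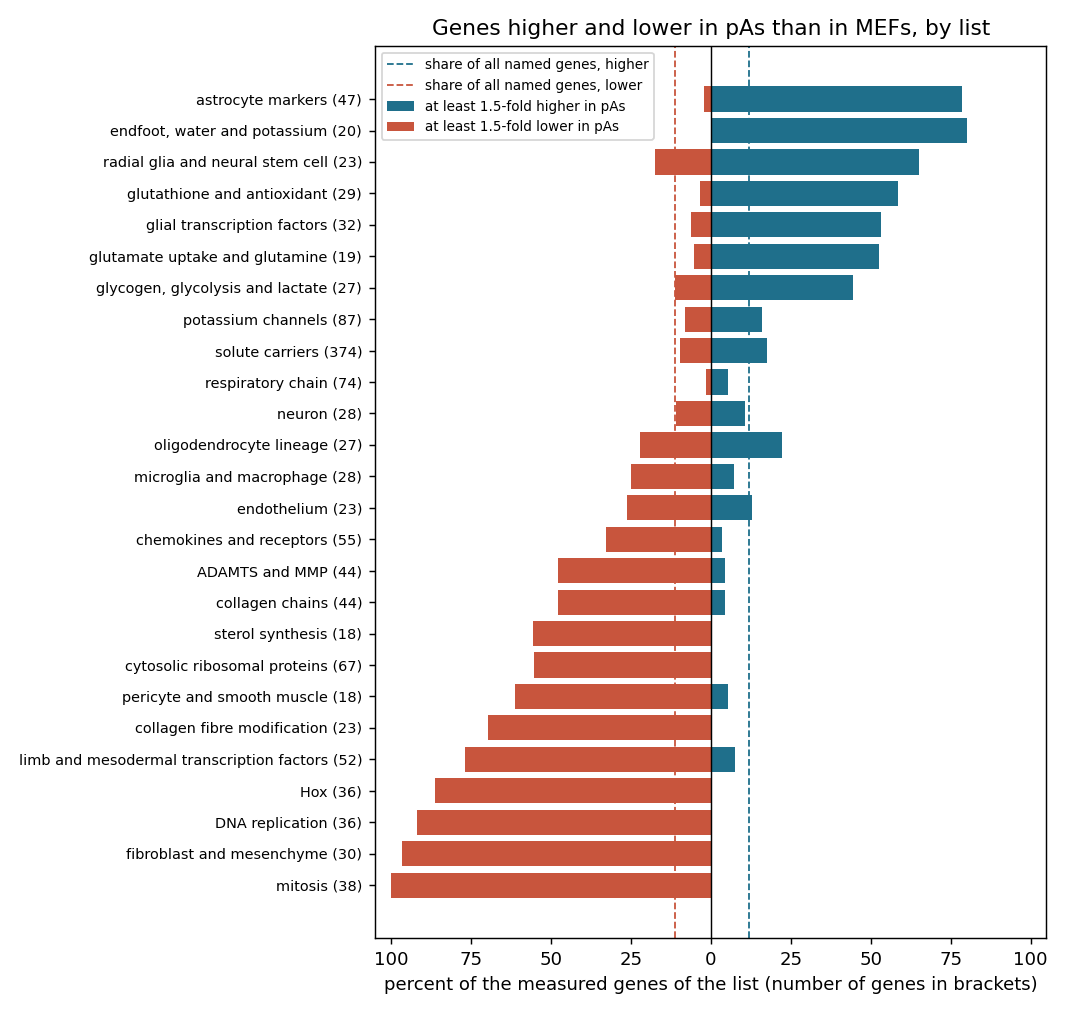
Percent of the measured genes of each list (horizontal axis) that were at least 1.5-fold higher (right) or lower (left) in pAs than in MEFs, 1 array each; dashed lines are the shares of all 22180 named genes, 12% and 11%. The mitosis bar reaches 100% on the left and that of the astrocyte markers 78.7% on the right.

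Other cells of newborn cortex could share the pA culture, and their markers were read as whole lists. Of the fixed markers measured, 6 of 8 for microglia, 6 of 7 for the oligodendrocyte lineage and 6 of 8 for neurons reached the pA median. On the MEF array 7, 6 and 8 of them reached its median. For ependyma 2 of 3 did so in pAs and 1 in MEFs. Of 28 microglia and macrophage genes 2 were higher and 7 lower in pAs, and the summed level of 8 fixed markers was 10.62 in pAs and 10.85 in MEFs on the log2 scale, with Aif1 and Ptprc below the pA median. Sall1, a factor of microglia that neural progenitors and mesenchyme also express, was at 10.54 in pAs and 7.98 in MEFs (5.92-fold), and Tmem119, a marker of microglia and also of bone cells, was at 7.24 in pAs and 9.40 in MEFs (4.49-fold). Of 27 oligodendrocyte lineage genes 6 were higher and 6 lower (22.2% each), with fixed markers summing to 11.76 and 12.57, and Mbp below the pA median. The sum hides members on both sides. Of the 7 fixed markers measured for this lineage, 2 were higher, Olig1 and Olig2, and 3 lower, Pdgfra, Sox10 and Cspg4. C1ql1, a secreted protein of these precursors, was at 11.565 in pAs and 7.19 in MEFs (20.8-fold), Cnp, a myelin enzyme, at 10.22 in pAs and 7.85 in MEFs (5.15-fold), and Cspg4, the proteoglycan NG2, at 7.60 in pAs and 9.82 in MEFs (4.65-fold). Of 28 neuronal genes 3 were higher and 3 lower (10.7% each), no more than the 12% and 11% of all named genes. The 8 fixed markers summed to 12.51 and 11.17, with Snap25 and Slc17a7 below the pA median. Stmn2, a protein of growing axons, was at 11.77 in pAs and 8.87 in MEFs (7.48-fold), Map2, of dendrites, at 10.63 in pAs and 9.34 in MEFs (2.44-fold), and Tubb3, the neuronal tubulin, at 7.12 in pAs and 9.02 in MEFs (3.73-fold). Ependymal genes gave 5 higher and 1 lower of 16, with the 3 fixed markers at 10.37 and 8.43. Foxj1, the factor of motile cilia, was at 10.06 in pAs and 6.52 in MEFs (at least 11.5-fold), while Tmem212, another fixed marker, was below the pA median. Aqp1, the water channel of choroid plexus and also of vessels, was the lower one at 7.02 in pAs and 9.61 in MEFs (6.03-fold).

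Vascular and meningeal markers were read in the same way. Among their fixed markers, 3 of 6 endothelial, 4 of 6 pericyte and smooth muscle and 2 of 4 meningeal ones reached the pA median. On the MEF array 3, 5 and 4 of them reached its median. Of 23 endothelial genes 3 were higher and 6 lower, or 3 and 3 with levels under the median set to it, with fixed markers at 9.50 and 9.34, Itm2a, a membrane protein, at 8.70 in pAs and 11.70 in MEFs (7.998-fold), and Cldn5, Tek and Emcn below the pA median. Of 18 pericyte and smooth muscle genes 1 was higher and 11 lower, with fixed markers at 13.80 and 14.56, and Actg2, a smooth muscle actin, was at 5.87 in pAs and 10.91 in MEFs while Des, desmin, was at 6.28 in pAs and 10.58 in MEFs (at least 16.1-fold). The higher one was Cnn1, calponin, at 11.94 in pAs and 11.32 in MEFs (1.53-fold). Rgs5 and Kcnj8 were below the pA median. Of 19 meningeal genes 4 were higher and 5 lower, with fixed markers at 9.47 and 9.58, Igfbp2, a binding protein of insulin-like growth factors, at 11.815 in pAs and 9.30 in MEFs (5.71-fold), and Foxd1 and Slc47a1 below the pA median. Schwann cell and neural crest genes were lower in 10 of 17 cases and higher in 1, with 4 at least 2-fold lower, and Ngfr, the p75 receptor, was at 6.87 in pAs and 8.56 in MEFs (3.22-fold). The higher one was S100b, which the study also uses as an astrocyte marker, at 7.61 in pAs and 6.40 in MEFs (at least 2.10-fold). On the MEF side, 15 of 29 skeletal muscle genes were lower in pAs and 0 higher, with Actc1, an actin of embryonic muscle and heart, at 5.98 in pAs and 9.57 in MEFs (at least 8.01-fold), and Myog, the myogenic factor myogenin, at 7.35 in pAs and 8.78 in MEFs (2.70-fold). Of 26 cartilage, bone and tendon genes 10 were lower and 2 higher, with Aspn, asporin, at 5.08 in pAs and 11.72 in MEFs and Omd, osteomodulin, against the direction at 10.35 in pAs and 7.13 in MEFs (9.35-fold). The part of such cells in the results above was not tested.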

How the data were processed

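Total RNA of iAs, pAs and MEFs was hybridized to Mouse Gene 2.0 ST arrays, 1 per cell type. The deposited log2 values, 1 per probe set, had been normalized by the authors with RMA (background correction, quantile normalization and probe summary) in Partek Genomics Suite, while the submitters' processing notes also name MAS5, all without versions. No depth or detection call comes with them, and the single arrays limit precision. Of 41345 probe sets, 23521 had 1 gene symbol in GEO's platform annotation, 1820 several and 16004 none. The former were averaged to 22180 genes, 1082 with over 1 probe set. Entrez IDs of 23328 probe sets matched RefSeq. Differences (pA minus MEF) were computed in Python 3.11.15 with numpy 2.4.6, pandas 2.3.3 and matplotlib 3.10.9, and tested on simulated arrays with planted folds. Calls used the 1.5-fold threshold of the study's methods, without replicates or tests. The comparison, its markers and the 69 gene lists, taken from general knowledge of the cell types or from gene family symbols, were chosen with earlier results of these data known. Named were the 6 markers, the 10 largest differences each way in the deposited values, and in each list the largest members and the largest against its direction, among genes whose higher level reached its array's median, each described once where lists overlap. The other genes named, among them those that did not separate the cultures, the microRNAs and a few members of each list with well-known functions, were chosen after their values were seen. Alternatives were quantile normalization, centring on bright probe sets, an offset of 32, a floor or filter at the median, a 2-fold threshold, the brightest probe set and probe sets in place of genes. The values of the iA array were left out.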

Additional observations from a re-analysis of the deposited data

Results flagged for a closer look

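Among the probe sets without a gene symbol, 5333 are numbered below the first named one and entered no comparison above. In this block 31.7% were at least 1.5-fold higher in pAs and 5.08% lower, against 12% and 11% of the named genes and 6.30% and 5.77% of the 10671 other probe sets without a symbol. The block was picked out because a signal on the pA array exceeded that on the MEF array in data that the report does not use. What its probe sets measure is not given in the sources used here, and its part in the results was not tested.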

How the results depend on the processing

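No paired analysis was possible because each cell type has 1 array, and for the same reason no replicate could be left out. At a 2-fold threshold 1529 genes were higher and 1360 lower in pAs, against 2661 and 2449 at 1.5-fold, and 26 of 67 list counts outside the main lists moved by over 1.5 times, as did 5 with a floor at the array median, 2 with the offset, 1 with the filter on dim genes and none of them under the other alternatives run on genes. Among the other lists with at least 9 such genes that moved, beside those given in the report, the count at 2-fold was 5 higher for the interferon list and 5 for the transmitter receptors, and 9 lower for the secreted factors, 11 for Wnt, 5 for the integrins and 8 for the intermediate filaments. With the floor, genes higher fell to 3 of the ependymal list and of the guanylate-binding list, and genes lower to 3 of the endothelial list, where 3 were also higher, of the S100 list, the cadherins and the P450 genes, to 4 of the potassium channels and to 2 of the connexins. Over the other alternatives run on genes the count of genes higher ran from 2376 to 2695 and that of genes lower from 2140 to 2620. The order turned under quantile normalization, with 2507 higher and 2620 lower, where the median difference was -0.063. The counts of the marker set, the astrocyte, fibroblast and mitosis lists and the Hox genes stayed within 1.5 times under every alternative run on genes, and so did the direction and call of the 22 ranked and marker genes. Depth was not given, and levels near or under the array medians set only bounds.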
